A study of Mus musculus with 6 samples.

Results

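The genes described here are 41 members of the BMP and TGF-beta signalling system, chosen by name from the 24521 genes of the deposited normalized table. They are ligands, receptors, SMAD proteins, secreted antagonists, latent binding proteins and the target genes Id1 and Id3. Of the 41, 40 had enough reads to be tested, and Grem1 did not. RNA was from mouse lung lobes at embryonic stage E18.5, shortly before birth. The 2 groups were Mll3 KO lungs, of genotype Mll3FDC/FDC, and wild-type lungs, with 3 libraries each. Mll3, now named Kmt2c, encodes a histone H3 lysine 4 methyltransferase. The labels give the allele without saying which cells or exons it affects, and they name no other allele, agent, strain or background that the groups share. They also do not say whether each library came from a separate embryo, so the p-values reflect only library-to-library spread, which may be partly technical. The Mll3 KO libraries are called KO 1, KO 2 and KO 3, and the wild-type ones WT 1, WT 2 and WT 3.

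Ligands of this family are secreted dimers that bring together a pair of type I and a pair of type II serine/threonine kinase receptors. BMP-type signals are carried mainly by SMAD1, SMAD5 and SMAD9, and TGF-beta and activin signals by SMAD2 and SMAD3. Both sets of SMADs act with SMAD4 and are held back by the inhibitory SMAD6 and SMAD7. In the developing lung, BMP4 acts in branching and distal epithelial differentiation, TGF-beta signals act in mesenchymal differentiation and matrix deposition, and ALK1 (Acvrl1) with endoglin acts in endothelial cells.

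The libraries held 20158689 to 23305306 gene-assigned reads. Kmt2c itself had 3416, 3504 and 3399 reads in KO 1 to KO 3, and 3588, 4104 and 3453 reads in WT 1 to WT 3, and its difference was not called (log2 fold change -0.09, SE 0.08, edgeR adjusted p = 0.74). A count over the whole gene cannot show whether a part of it is deleted, so this is no check of the genotype. KO 3 had 59951 Xist reads and 4 reads on Y-linked genes, while the other 5 libraries had 6 to 27 reads of Xist and 7414 to 9300 on Y-linked genes. In the main edgeR fit no member was called, nor was any with KO 3 or any other single library left out. Over all genes, 70 were called with all 6 libraries and 27 without KO 3. The calls of the smaller fits therefore cannot show whether KO 3 matters to the members. The fold changes moved for some members and not for others. Without KO 3, the log2 fold change went from -0.30 to -0.49 for Bmp3 and stayed at 0.32 for Bmp1. Lung markers were high in all libraries: the summed level of 8 alveolar type 2 markers was 19320 to 24019 CPM (read counts scaled to library size) in Mll3 KO lungs and 19299 to 21615 CPM in wild-type lungs. The sum of 8 alveolar type 1 markers was 3630 to 4287 CPM in Mll3 KO lungs and 5159 to 5643 CPM in wild-type lungs. All marker lists had reads, none of their genes being at 0 in all 6 libraries. These are bulk lungs, in which fewer cells of a type and less RNA per cell cannot be told apart.

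No member was called different between Mll3 KO and wild-type lungs at an adjusted p under 0.05 (edgeR quasi-likelihood test, Benjamini-Hochberg adjustment over 19042 genes). Over all genes tested, 0.0630% were called higher and 0.305% lower in Mll3 KO lungs. At an unadjusted p under 0.05 there were 4 members, Bmp1, Tgfb2, Acvr2b and Id1, all higher in Mll3 KO lungs. That is 10% of the members tested, against 10.7% of all genes. By DESeq2, 1 member was called, Bmp1, which was higher, where 0.365% of genes were called higher and 1.76% lower. With the title prefix, described in the paragraph on Bmp1, as a further term, 1 member was again called, Bmp1, where 0.746% of all genes were called higher and 2.54% lower. By limma voom there was no member called. Point estimates were higher in Mll3 KO lungs for 19 members and lower for 21, and their median log2 fold change was -0.02, where that of all genes tested was 0.01. With scaling by library size alone the members' median was 0.01, so its sign is not fixed by these data.

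The Mll3 KO libraries all lay above the wild-type libraries for 4 members, again Bmp1, Tgfb2, Acvr2b and Id1, or 10% of those tested. Such a complete separation upwards was seen in 8.60% of all genes. They all lay below for 1 member, Tgfbr2, or 2.5%, against 8.45% of all genes. Both shares of the members were thus within a few percentage points of the background or under it. How tightly the data bound each difference varied: the 95% interval of the log2 fold change lay within 0.5 of zero for 28 of the 40 members (70.0%), against 58.2% of all genes tested. It lay within 0.25 of zero for 10 members and within 1 of zero for 37. For Bmpr1b, Nog and Fst, the 3 members outside that last bound, these libraries do not show whether the genotypes differed by less or more than 2-fold.

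**Figure D1:**
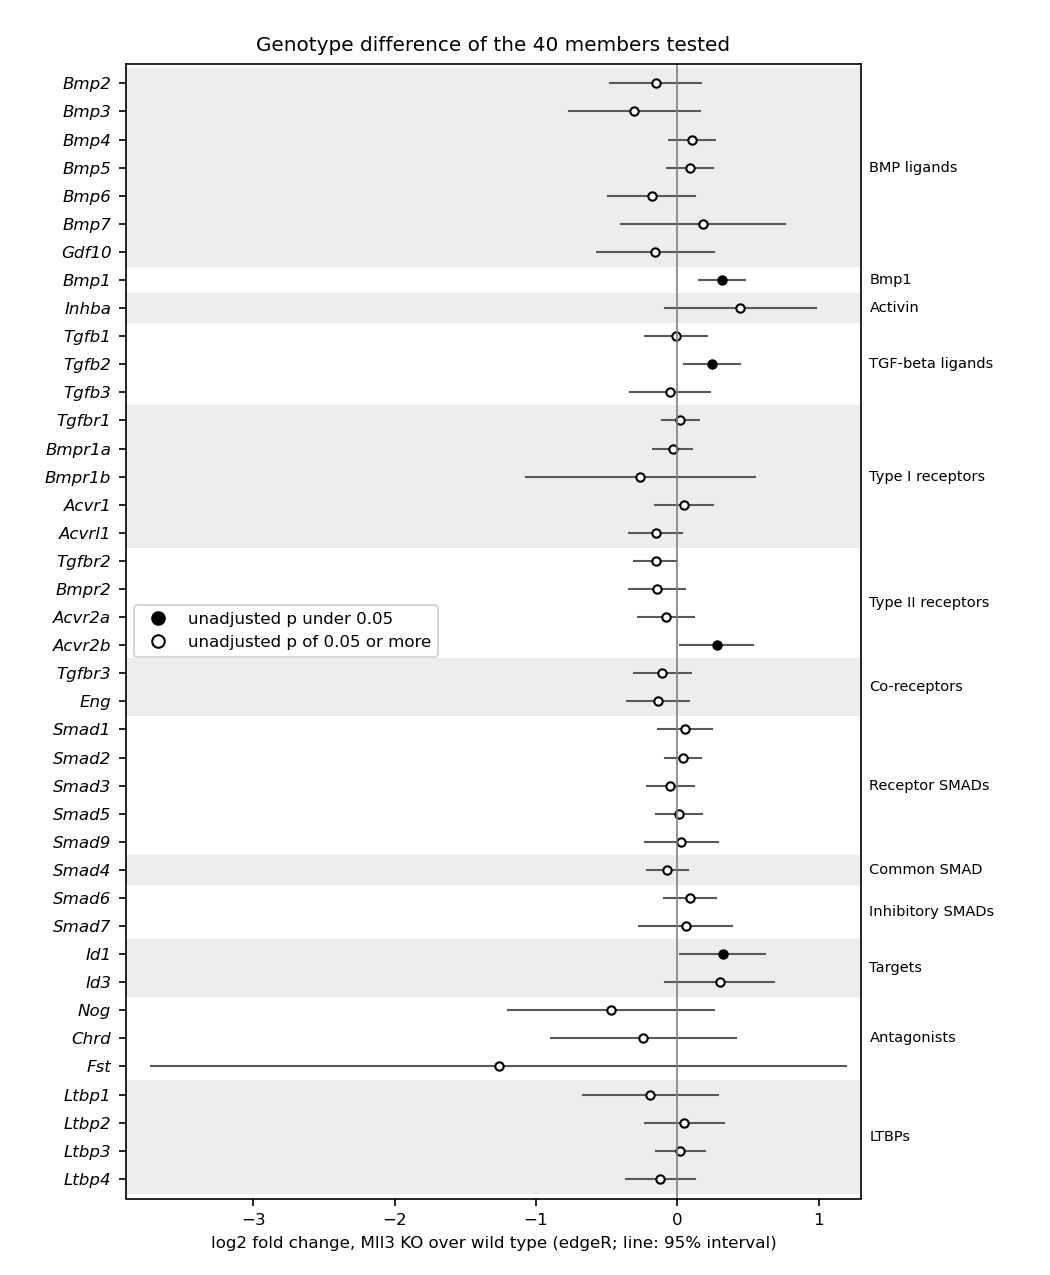
Log2 fold change of each of the 40 tested members, Mll3 KO over wild type, with its 95% interval from the edgeR fit, in order of role. Most intervals cross zero and are narrow, that of Fst runs from -3.72 to 1.19, and those of Bmp1, Tgfb2, Acvr2b and Id1 lie above zero before adjustment for the number of genes.

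For the separated members listed in the RefSeq promoter table, the sequence next to the transcription start is shown with the short sequences to which SMAD proteins are known to bind. The table, on GRCm38.p6, gives 250 bases before and 50 bases after each start, and it lists 28 of the 41 members with 36 promoters. Bmp1, Bmp2, Bmp3, Bmp7, Tgfb3, Tgfbr3, Acvrl1, Smad2, Smad4, Smad7, Id1, Nog and Fst are not among them. Printed here are the bases before the start and outside the gene's own span, 5′ to 3′ on the gene's strand, with each CAGAC or its reverse complement GTCTG in capitals. The Tgfb2 stretch is chr1:186705990-186706239, minus strand, where GENCODE M21 also places an exon of the antisense transcript Gm29491. The Acvr2b stretch is chr9:119401928-119402117, plus strand, and the Tgfbr2 stretch is chr9:116175364-116175613, minus strand.
Tgfb2: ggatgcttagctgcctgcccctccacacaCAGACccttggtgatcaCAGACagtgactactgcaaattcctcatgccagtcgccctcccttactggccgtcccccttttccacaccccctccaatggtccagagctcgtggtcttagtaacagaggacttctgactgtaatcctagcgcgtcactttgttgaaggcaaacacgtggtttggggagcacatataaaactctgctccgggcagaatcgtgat
Acvr2b: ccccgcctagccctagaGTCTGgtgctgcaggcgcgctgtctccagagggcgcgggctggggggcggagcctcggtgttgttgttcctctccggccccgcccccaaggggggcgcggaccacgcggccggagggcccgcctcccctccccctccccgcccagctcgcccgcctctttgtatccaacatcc
Tgfbr2: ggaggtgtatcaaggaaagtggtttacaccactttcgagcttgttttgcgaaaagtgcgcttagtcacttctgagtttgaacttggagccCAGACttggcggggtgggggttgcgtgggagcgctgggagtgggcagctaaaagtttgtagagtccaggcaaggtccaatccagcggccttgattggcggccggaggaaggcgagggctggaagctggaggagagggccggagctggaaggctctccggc
These stretches hold 2 (Tgfb2), 1 (Acvr2b) and 1 (Tgfbr2) of the CAGAC element, the core of the SMAD3 and SMAD4 site, and none of them holds GGCGCC, a GC-rich element bound by SMAD1 and SMAD5. Searched on both strands of the full 300 bases, CAGAC or GTCTG was in 19 of the 36 member promoters (52.8%) and in 49.6% of the 32851 promoters of the table. GGCGCC, which is its own reverse complement, was in 11 of the 36 (30.6%) and in 11.9% of all promoters. The 11 were those of Bmpr2, Grem1, Smad9, Tgfbr1, Ltbp4, Smad5, Gdf10, Bmpr1a and Chrd, with a pair each for Ltbp4 and Smad5. The promoters of each pair overlap in position, so the same element may be counted in both. The member promoters were also richer in G and C, at a median of 64.7%, against 52.7% over all promoters. The palindrome GTCTAGAC, which holds no CAGAC or GTCTG, was in 1 of the 36 (2.78%), a single match, against 0.213% of all promoters. These matches describe the sequence and are not evidence of binding.

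Levels of different genes are compared as RPKM, which divides CPM by the exon length in kilobases, averaged over the 6 libraries. The highest members were Ltbp4 (62.9 RPKM), Acvrl1 (59.0 RPKM), Id1 (53.9 RPKM), Id3 (45.5 RPKM), Ltbp3 (41.1 RPKM), Eng (37.2 RPKM) and Tgfbr2 (36.0 RPKM). They carry latent TGF-beta storage, endothelial TGF-beta family reception and the helix-loop-helix targets of BMP signals. The lowest were the secreted antagonists Grem1 (0.137 RPKM), Fst (0.368 RPKM), Nog (0.473 RPKM) and Chrd (0.792 RPKM), and the ligand genes Inhba (0.776 RPKM) and Bmp7 (0.966 RPKM). In all, 24 members lay above 10 RPKM and 6 under 1 RPKM, and the highest mean was 459 times the lowest. Neighbours in this order overlapped over the libraries except at 5 gaps, where no library of the upper gene reached down to any library of the next. The gaps lay between Smad4 (33.5 RPKM) and Bmp5 (27.7 RPKM), Tgfbr1 (15.8 RPKM) and Smad7 (12.5 RPKM), Smad6 (9.68 RPKM) and Acvr1 (7.84 RPKM), Smad9 (5.64 RPKM) and Bmp6 (4.31 RPKM), and Acvr2b (3.83 RPKM) and Bmp2 (2.83 RPKM).

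**Figure D2:**
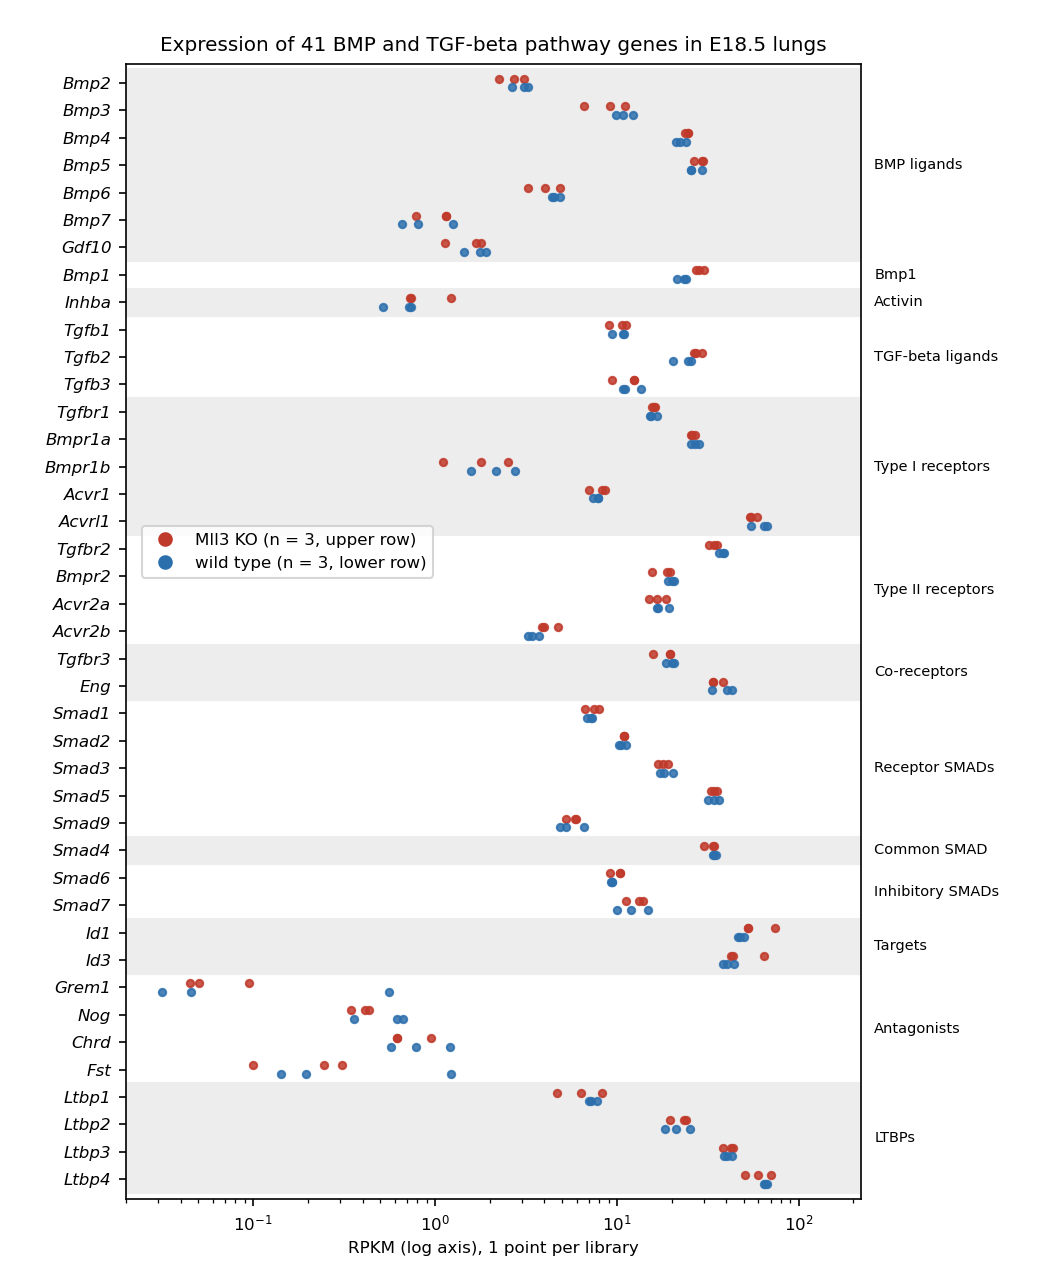
Level of each of the 41 members in RPKM on a log axis, 1 point per library, with the Mll3 KO libraries above the wild-type libraries in each line and the roles at the right. The antagonists Grem1, Nog, Chrd and Fst stay near or under 1 RPKM, while Ltbp4, Acvrl1 and Id1 lie above 45 RPKM in each library.

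Among the BMP-type ligands no member was called, 3 of the 7 pointing higher and 4 lower. Bmp4, the main distal epithelial BMP of the lung, was at 55.1, 53.2 and 55.4 CPM in Mll3 KO lungs and at 50.3, 47.7 and 54.0 CPM in wild-type lungs. Its log2 fold change was 0.11, with a 95% interval of -0.05 to 0.27, and the groups overlapped. Bmp5, which is expressed in lung mesenchyme, was at 118, 107 and 119 CPM in Mll3 KO lungs and 102, 103 and 118 CPM in wild-type lungs. Both genotypes thus spanned nearly the same range, and the interval of its log2 fold change was -0.07 to 0.26. Bmp5 and Bmp4 together made up most of the BMP-type ligand RNA. Bmp5 held 40.2% ± 2.35 of the summed RPKM in Mll3 KO lungs and 38.0% ± 1.38 in wild-type lungs, and Bmp4 held 34.2% ± 1.27 in Mll3 KO lungs and 32.0% ± 0.276 in wild-type lungs (SD, n = 3 each). The sum over the 7 genes was 71.0 ± 2.70 RPKM in Mll3 KO lungs and 70.5 ± 3.92 RPKM in wild-type lungs.

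Bmp3, a ligand that opposes signalling by other BMPs, was at 48.7, 67.5 and 82.1 CPM in Mll3 KO lungs and 80.2, 73.2 and 91.1 CPM in wild-type lungs. KO 1 was the lowest library and KO 3 was the second highest, and the log2 fold change of -0.30 (SE 0.19, edgeR adjusted p = 0.65) was not called. Without KO 1 it was -0.13. Bmp6, a ligand related to Bmp5 and Bmp7, was at 12.7, 18.9 and 15.7 CPM in Mll3 KO lungs and 19.0, 17.5 and 17.1 CPM in wild-type lungs, again with KO 1 lowest. Bmp2, which signals through the same receptors as Bmp4, had a log2 fold change of -0.15 with an interval of -0.47 to 0.17. Without KO 1 the values were -0.046 for Bmp2 and -0.049 for Bmp6. Bmp7 and Gdf10 (also known as BMP3B) were under 10 CPM in each library, and their intervals of -0.40 to 0.76 and -0.57 to 0.26 leave room for sizeable change in either direction.

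Bmp1 is not a ligand of the family. It encodes an astacin metalloproteinase that removes the C-propeptide of fibrillar procollagens and that cleaves chordin and latent TGF-beta binding protein. It lies at chr14:70474558-70520234 (mm10, coordinates of the count table). The gene was at 267, 241 and 251 CPM in Mll3 KO lungs and 208, 212 and 189 CPM in wild-type lungs. The lowest Mll3 KO library was above the highest wild-type library, and the means were 253 ± 13.3 CPM in Mll3 KO lungs and 203 ± 11.9 CPM in wild-type lungs (SD, n = 3 each). The log2 fold change was 0.32 (SE 0.07, 95% interval 0.16 to 0.48), with an edgeR adjusted p of 0.11, so it was not called. The call differed with the model: the adjusted p was 0.010 by DESeq2, 0.016 by edgeR with the title prefix as a further term, and 0.14 by limma voom. The title prefix is a code shared by KO 1, WT 1 and WT 2 and another shared by KO 2, KO 3 and WT 3, whose meaning the labels do not state. Within the first of these sets the difference was 0.35 on the log2 scale, and within the second it was 0.37. With any 1 library left out, the log2 fold change stayed between 0.26 and 0.35.

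**Figure D3:**
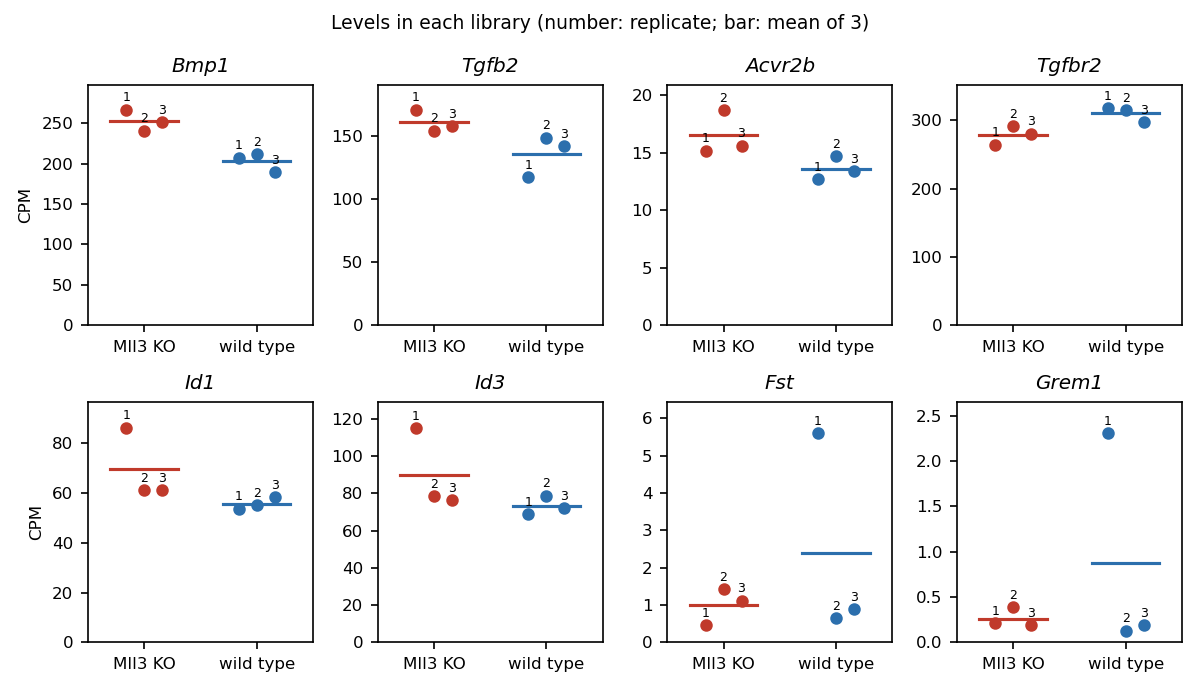
CPM by library for the members the text turns on, with Mll3 KO points to the left of wild-type points in each panel and a bar at each mean. The Bmp1 libraries separate by genotype, while in the panels of Id1, Id3 and Fst a single library, KO 1 or WT 1, stands apart from the other 5.

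The TGF-beta ligand genes were led by Tgfb2, at chr1:186622792-186705989. It was at 171, 154 and 157 CPM in Mll3 KO lungs and 117, 148 and 142 CPM in wild-type lungs. All Mll3 KO libraries were above all wild-type ones, but KO 2 exceeded WT 2 by only a few CPM and WT 1 was the lowest by far. The log2 fold change was 0.24 (SE 0.09, 95% interval 0.04 to 0.44, edgeR adjusted p = 0.35), and without WT 1 it was 0.14. Within the title prefix of KO 1 the difference was 0.37 on the log2 scale, and within that of KO 2 and KO 3 it was 0.13. Tgfb2 held 56.1% ± 2.71 of the summed RPKM of the 3 TGF-beta genes in Mll3 KO lungs and 51.3% ± 3.22 in wild-type lungs (SD, n = 3 each), ranges that overlapped. Tgfb1, which is made by many cell types including endothelial and immune cells, was at 45.5, 56.4 and 53.7 CPM in Mll3 KO lungs and 55.1, 54.2 and 47.3 CPM in wild-type lungs. Tgfb3 was at 41.9, 41.9 and 32.0 CPM in Mll3 KO lungs and 37.6, 36.6 and 45.9 CPM in wild-type lungs. Neither differed beyond its spread, with log2 fold changes of -0.01 and -0.05 in that order.

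Inhba encodes the beta A subunit of activin A. It was at 4.65, 7.83 and 4.71 CPM in Mll3 KO lungs and 4.70, 4.57 and 3.29 CPM in wild-type lungs. Only KO 2 was clearly above the wild-type libraries, and the log2 fold change of 0.45 (95% interval -0.08 to 0.98, edgeR adjusted p = 0.55) was 0.16 without KO 2.

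None of the 5 type I receptor genes was called. Tgfbr1 (ALK5), the type I receptor for TGF-beta, was at 102, 106 and 104 CPM in Mll3 KO lungs and 100, 108 and 98.9 CPM in wild-type lungs. Bmpr1a (ALK3), the main BMP type I receptor of lung epithelium, was at 163, 172 and 165 CPM in Mll3 KO lungs and 170, 162 and 180 CPM in wild-type lungs. These were among the most tightly bounded members, with 95% intervals of -0.11 to 0.15 for Tgfbr1 and -0.17 to 0.11 for Bmpr1a. Acvr1 (ALK2), a receptor for BMP6 and BMP7, was also close in both groups, at 33.9, 40 and 41.5 CPM in Mll3 KO lungs and 38.1, 35.5 and 38.2 CPM in wild-type lungs. Bmpr1b (ALK6), by contrast, was low and variable, at 6.61, 15.1 and 10.7 CPM in Mll3 KO lungs and 13.0, 9.37 and 16.5 CPM in wild-type lungs, and its interval of -1.07 to 0.55 bounds little. Its log2 fold change of -0.26 was -0.0070 without KO 1 and -0.58 without KO 2.

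Acvrl1 (ALK1) and Eng, the endothelial type I receptor and co-receptor that bind BMP9 and BMP10, moved together across the libraries. Acvrl1 was at 231, 233 and 251 CPM in Mll3 KO lungs and 276, 286 and 234 CPM in wild-type lungs. Eng was at 138, 137 and 155 CPM in Mll3 KO lungs and 164, 174 and 134 CPM in wild-type lungs. In both, WT 1 and WT 2 were the highest. WT 3 fell among the Mll3 KO libraries for Acvrl1 and was the lowest of the 6 for Eng. The log2 fold changes were -0.15 (edgeR adjusted p = 0.57) and -0.14 (edgeR adjusted p = 0.67), neither called. With 1 library left out, that of Acvrl1 ran from -0.24 (without WT 3) to -0.10 (without WT 2), and that of Eng from -0.24 (without WT 3) to -0.063 (without WT 2). The 8 endothelial markers summed to 2231, 2100 and 2219 CPM in KO 1 to KO 3 and 2460, 2601 and 2197 CPM in WT 1 to WT 3, again with WT 1 and WT 2 highest, and their part in these values was not tested. Acvrl1 held more than any other type I receptor gene, at 51.8% ± 1.39 of the summed RPKM of the 5 in Mll3 KO lungs and 54.1% ± 3.39 in wild-type lungs (SD, n = 3 each).

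The type II receptor genes contained a member separated in each direction. Tgfbr2, at chr9:116084293-116175360, encodes the receptor that binds TGF-beta first and recruits ALK5. It was at 264, 292 and 281 CPM in Mll3 KO lungs and 318, 315 and 298 CPM in wild-type lungs. The groups did not overlap, but KO 2 and WT 3 were close, and the log2 fold change of -0.15 (SE 0.07, edgeR adjusted p = 0.47) was not called. Within the title prefixes it was -0.26 with KO 1 and -0.06 with KO 2 and KO 3. Acvr2b, at chr9:119402118-119434995, encodes a receptor for activins and myostatin. It was at 15.2, 18.7 and 15.6 CPM in Mll3 KO lungs and 12.7, 14.7 and 13.4 CPM in wild-type lungs. Its groups were also separate, narrowly so between KO 1 and WT 2, and its log2 fold change of 0.28 (SE 0.11, edgeR adjusted p = 0.41) was not called. It was 0.18 without KO 2, 0.15 within the prefix of KO 1 and 0.34 within that of KO 2 and KO 3. Acvr2b was the smallest part of the type II receptor RNA, at 5.76% ± 0.543 of the summed RPKM of the 4 genes in Mll3 KO lungs and 4.39% ± 0.286 in wild-type lungs (SD, n = 3 each). In that share, which needs no scaling between libraries, the lowest Mll3 KO library (5.21%) was above the highest wild-type library (4.70%). Acvr2b was picked for its separate CPM in the same libraries, so its share adds no independent evidence. Such a separation was not particular to Acvr2b. The share of Bmp4 among the BMP-type ligands (33.3% against 32.2%) and that of Tgfbr1 among the type I receptors (14.3% against 14.0%) also separated upwards. A share also rises when the other genes fall. The sum of the 4 type II receptor genes was lower in each Mll3 KO library than in any wild-type one. The gap was narrow, from 76.4 RPKM in KO 3 to 77.8 RPKM in WT 1. The corresponding sums of the TGF-beta ligand, BMP-type ligand, type I receptor, receptor-regulated SMAD and Ltbp genes overlapped between genotypes.

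Bmpr2, the BMP type II receptor whose loss causes heritable pulmonary hypertension in people, was at 282, 338 and 353 CPM in Mll3 KO lungs and 344, 369 and 360 CPM in wild-type lungs. KO 1 was far lower than the other 5 libraries, and KO 3 lay within the wild-type range. Acvr2a, a receptor for activins and several BMPs, was at 85.6, 94.4 and 105 CPM in Mll3 KO lungs and 94.6, 96.3 and 110 CPM in wild-type lungs, with the same order of the Mll3 KO libraries. Tgfbr3 (betaglycan), a co-receptor that presents TGF-beta 2, was at 103, 129 and 128 CPM in Mll3 KO lungs and 121, 131 and 134 CPM in wild-type lungs. The log2 fold changes of these genes were -0.14, -0.08 and -0.10 in that order, and none was called. Without KO 1 they were -0.056, -0.011 and -0.0091, and that of Acvr2a was also -0.011 without WT 3. Summed over the 4 type II receptor genes, the level was 66.9, 75.8 and 76.4 RPKM in KO 1 to KO 3 and 77.8, 79.7 and 79.3 RPKM in WT 1 to WT 3.

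The SMAD genes were at close levels in both groups. Of the 8, none was called or separated, and the largest log2 fold change in size was 0.09. Smad5 was the main BMP-side SMAD gene, at 245, 263 and 254 CPM in Mll3 KO lungs and 234, 270 and 252 CPM in wild-type lungs. It held 72.4% ± 0.723 of the summed RPKM of Smad1, Smad5 and Smad9 in Mll3 KO lungs and 72.8% ± 1.59 in wild-type lungs. On the TGF-beta side, Smad3 held 62.0% ± 1.29 of the summed RPKM of Smad2 and Smad3 in Mll3 KO lungs and 63.5% ± 2.52 in wild-type lungs (SD, n = 3 each). Smad2 itself was at 96.2, 95.8 and 96.7 CPM in Mll3 KO lungs and 92.1, 98 and 90.2 CPM in wild-type lungs, with a 95% interval of the log2 fold change of -0.09 to 0.17. Smad4, the shared partner, was at 111, 126 and 127 CPM in Mll3 KO lungs and 126, 126 and 130 CPM in wild-type lungs. KO 1 alone was low there, and the log2 fold change of -0.07 was -0.014 without it. Smad1 and Smad9, which carry BMP signals with Smad5, had log2 fold changes of 0.06 and 0.03.

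The inhibitory SMAD genes are themselves induced by the pathway and act as its feedback. Smad6, the inhibitor specific to BMP signals, was at 29.2, 33.2 and 33.5 CPM in Mll3 KO lungs and 29.8, 30.2 and 30.2 CPM in wild-type lungs. Smad7, which acts on both sides, was at 50.5, 62.8 and 60.1 CPM in Mll3 KO lungs and 45.5, 54.2 and 66.8 CPM in wild-type lungs. Both overlapped between genotypes, with 95% intervals of -0.09 to 0.27 for Smad6 and -0.27 to 0.39 for Smad7.

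**Figure D4:**
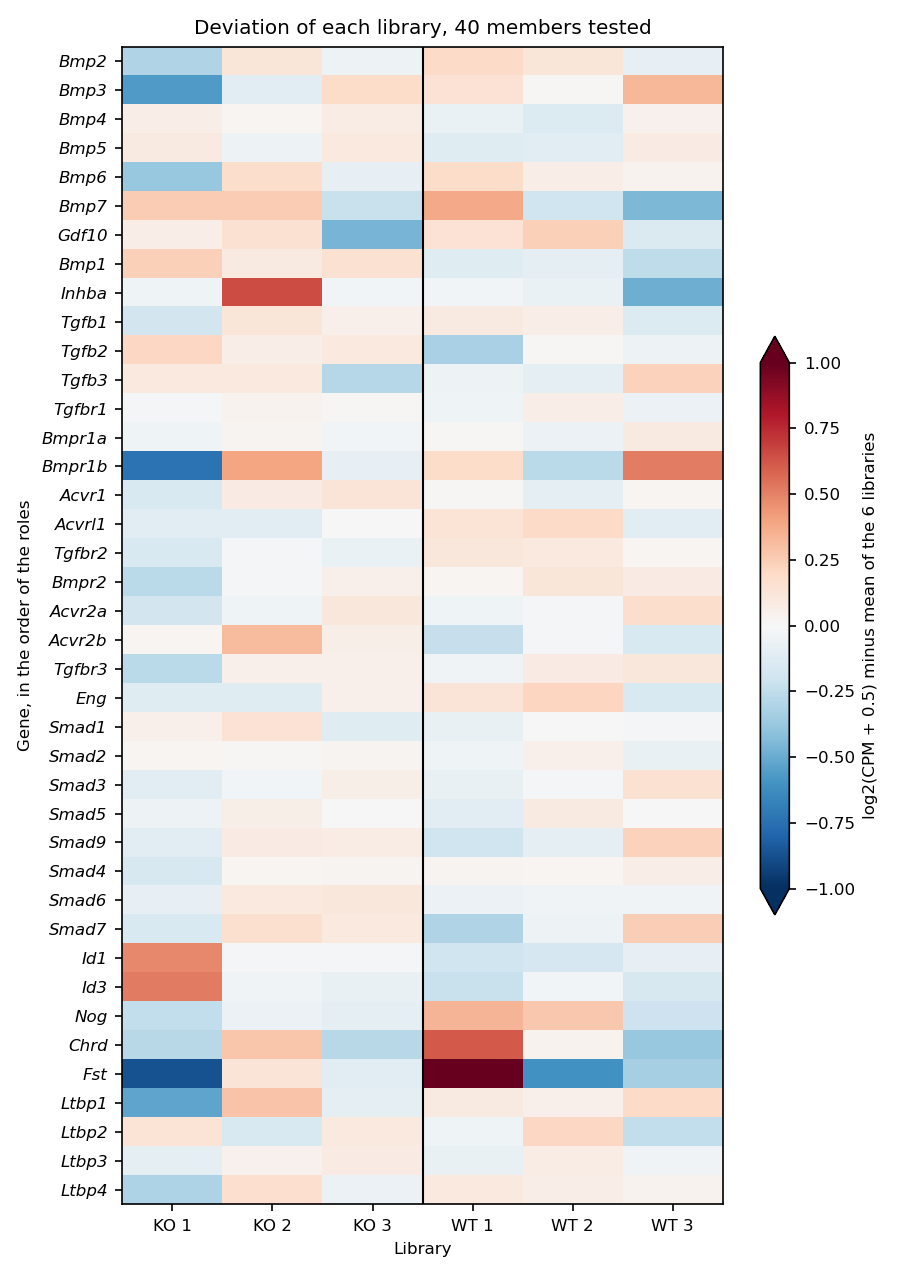
Log2 CPM of the 40 tested members in each library, relative to the gene's mean over the 6 libraries, with Mll3 KO libraries at the left and wild-type libraries at the right. KO 1 is the lowest library for 19 of the 40 members and the highest for Bmp1, Tgfb2, Id1 and Id3.

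Id1 and Id3 encode helix-loop-helix proteins without a DNA-binding region and are transcribed in direct response to BMP signals. Id1, at chr2:152736251-152737410, was at 86.1, 61.1 and 61.0 CPM in Mll3 KO lungs and 53.7, 55.0 and 58.2 CPM in wild-type lungs. The groups did not overlap, but KO 1 was far above the rest, and KO 2 and KO 3 were just above WT 3. The log2 fold change was 0.32 (SE 0.13, 95% interval 0.02 to 0.62, edgeR adjusted p = 0.43) with KO 1 and 0.13 without it. In the same way it was 0.66 within the prefix of KO 1 and 0.07 within the prefix of KO 2 and KO 3. Id3, at chr4:136143497-136145755, was at 115, 78.3 and 76.4 CPM in Mll3 KO lungs and 68.7, 78.7 and 72.0 CPM in wild-type lungs. Here KO 2 and KO 3 lay inside the wild-type range, and the log2 fold change of 0.30 (SE 0.16, edgeR adjusted p = 0.58) was 0.08 without KO 1. Id2, a relative that is not a member, was also highest in KO 1, at 205, 151 and 172 CPM in Mll3 KO lungs and 144, 132 and 152 CPM in wild-type lungs. The 8 markers of proliferating cells summed to 1061, 768 and 723 CPM in KO 1 to KO 3 and 635, 749 and 688 CPM in WT 1 to WT 3. All 8 of these markers pointed higher and none was called. KO 1 was thus the highest library in that sum too, and its part in the Id genes was not tested.

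KO 1 was often at an extreme among the libraries. It was the lowest of the 6 libraries for 19 of the 40 members (47.5%), among them Bmpr2, Tgfbr2, Smad4, Bmp3 and 3 of the 4 Ltbp genes, and for 23.4% of all genes tested. It was the highest for 4 members (10%), the Id genes, Bmp1 and Tgfb2, and for 26.5% of all genes. In pairs of libraries of the same genotype, the chi-square per degree of freedom was 17.6 and 23.3 for KO 1 with KO 2 and KO 3, 13.5 for KO 2 with KO 3, and 9.34 to 10.1 within wild type. By this measure each Mll3 KO pair lay above the wild-type pairs, that of KO 2 and KO 3 included. The measure runs over genes of all chromosomes, Xist and the Y-linked genes included, in which KO 3 stood apart. How much these genes added was not tested.

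The secreted antagonists among the members, which bind BMPs or activins and keep them from their receptors, were the least expressed member role. Antagonists and modulators outside the members ranged widely. Fstl1 had means of 1086 CPM in Mll3 KO and 1059 CPM in wild-type lungs, and Nbl1 had 55.7 and 68.8 CPM. Cer1 was at 0.189 and 0.0598 CPM in the same order. Fst (follistatin, an activin antagonist), at chr13:114452290-114458951, was at 0.460, 1.42 and 1.12 CPM in Mll3 KO lungs and 5.60, 0.653 and 0.893 CPM in wild-type lungs. A single library, WT 1, was far above the other 5. The log2 fold change of -1.26 (95% interval -3.72 to 1.19, edgeR adjusted p = 0.72) turned to 0.35 without WT 1. Grem1 (gremlin 1), at chr2:113746164-113758646, had 5, 8 and 4 reads in KO 1 to KO 3 and 51, 3 and 4 reads in WT 1 to WT 3, and was not tested. Chrd (chordin) was highest in WT 1 as well, at 3.85, 5.92 and 3.87 CPM in Mll3 KO lungs and 7.59, 4.92 and 3.57 CPM in wild-type lungs. The 6 markers of oesophageal and basal epithelium summed to 35.6, 77.4 and 49.3 CPM in KO 1 to KO 3 and 806, 29.1 and 57.4 CPM in WT 1 to WT 3. Of the 6, all pointed lower and none was called. The 6 skeletal muscle markers summed to 21.1, 534 and 15.8 CPM in KO 1 to KO 3 and 535, 21.6 and 14.4 CPM in WT 1 to WT 3, and were high in the 2 libraries in which Chrd was highest, KO 2 and WT 1. The part of either marker list in the values of Fst, Grem1 and Chrd was not tested. Nog (noggin) was at 0.586, 0.734 and 0.700 CPM in Mll3 KO lungs and 1.13, 1.05 and 0.611 CPM in wild-type lungs, a difference of -0.47 on the log2 scale (95% interval -1.19 to 0.26) that was not called.

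The latent TGF-beta binding proteins tether latent TGF-beta to the matrix or, in the case of Ltbp2, serve in elastic fibres without binding it. Ltbp4, which acts in elastic fibre assembly in the lung, was at 326, 454 and 388 CPM in Mll3 KO lungs and 432, 423 and 415 CPM in wild-type lungs. The Mll3 KO libraries spread to both sides of the wild-type ones, and the log2 fold change of -0.12 (95% interval -0.37 to 0.12) was -0.01 without KO 1. Ltbp1, which tethers TGF-beta 1, showed the same order of the Mll3 KO libraries, at 50.1, 88.6 and 67.7 CPM in Mll3 KO lungs and 77.3, 74.9 and 83.0 CPM in wild-type lungs. Its log2 fold change of -0.19 was -0.0091 without KO 1. Ltbp3 was at 348, 384 and 394 CPM in Mll3 KO lungs and 354, 392 and 364 CPM in wild-type lungs, with an interval of -0.15 to 0.19. Ltbp2 was at 196, 161 and 192 CPM in Mll3 KO lungs and 174, 207 and 150 CPM in wild-type lungs, and overlapped fully. Of the summed RPKM of the 4, Ltbp4 held 46.0% ± 3.63 in Mll3 KO lungs and 48.5% ± 1.78 in wild-type lungs (SD, n = 3 each).

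A further 114 genes of the pathway, listed by role, were read from the same fit. Of these, 90 were tested and none was called by edgeR at an adjusted p under 0.05. At an unadjusted p under 0.05 there were 17 (5 higher and 12 lower), or 18.9% of those tested against 10.7% of all genes. By DESeq2, 3 were called higher and 5 lower, and with the title prefix as a term 2 were called higher and 5 lower. Over all genes, the shares were 0.365% higher and 1.76% lower by DESeq2, and 0.746% higher and 2.54% lower with the title prefix. Limma voom called none. The median log2 fold change of the 90 was -0.06. The Mll3 KO libraries all lay above the wild-type ones for 5 of the 90 (5.56%), against 8.60% of all genes. They all lay below for 14 (15.6%), against 8.45% of all genes.

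Latent TGF-beta activation and matrix storage gave 5 of its 14 genes (35.7%) at an unadjusted p under 0.05, against 10.7% of all genes. Of the 5, 3 were higher and 2 lower. The groups were separate upwards for 3 of the 14 and downwards for 3 (21.4% each), against 8.60% and 8.45% of all genes. Pcsk6, a proprotein convertase that cleaves precursors of the family, was at 41.2, 36.0 and 30.9 CPM in Mll3 KO lungs and 26.1, 20.8 and 24.9 CPM in wild-type lungs. Its log2 fold change was 0.59 (SE 0.12), with an edgeR adjusted p of 0.089, a DESeq2 adjusted p of 0.0023 and an adjusted p of 0.032 with the title prefix as a term. Thbs1 (thrombospondin 1), which can activate latent TGF-beta, was at 298, 278 and 232 CPM in Mll3 KO lungs and 185, 205 and 216 CPM in wild-type lungs. All Mll3 KO libraries were above all wild-type ones, with a log2 fold change of 0.41 (SE 0.10, edgeR adjusted p = 0.14, DESeq2 adjusted p = 0.0065, and 0.069 with the title prefix). Fbn2 (fibrillin 2), which was chosen for mention after its values were seen, was separated in the same direction (log2 fold change 0.57, edgeR adjusted p = 0.16, DESeq2 adjusted p = 0.00067, and 0.048 with the title prefix). Itgb6, likewise chosen, encodes an integrin subunit that activates latent TGF-beta and is made in epithelium, and had a log2 fold change of -0.35 (edgeR adjusted p = 0.30, 0.0088 with the title prefix, and 0.11 by DESeq2). The other gene that was lower at an unadjusted p under 0.05 was Fbn1 (fibrillin 1), to which latent TGF-beta complexes bind, at -0.19.

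Among the other extracellular antagonists and modulators, 3 of 16 tested (18.8%) had an unadjusted p under 0.05, against 10.7% of all genes. All 3 were lower in Mll3 KO lungs. Nbl1 (DAN), a secreted BMP antagonist, was at 56.1, 57.9 and 52.9 CPM in Mll3 KO lungs and 75.2, 62.8 and 68.5 CPM in wild-type lungs (log2 fold change -0.31, edgeR adjusted p = 0.17). Crim1, a transmembrane BMP-binding protein chosen after its values were seen, had a log2 fold change of -0.36 (edgeR adjusted p = 0.21, 0.047 by DESeq2, and 0.040 with the title prefix).

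Of the 22 other ligand genes, 9 were tested. An unadjusted p under 0.05 was reached by 3 of the 9 (33.3%), all lower, against 10.7% of all genes. Bmp8b was at 1.13, 1.32 and 1.73 CPM in Mll3 KO lungs and 2.39, 2.92 and 4.37 CPM in wild-type lungs (log2 fold change -1.21, SE 0.28, edgeR adjusted p = 0.13, DESeq2 adjusted p = 0.039, and 0.012 with the title prefix). Its close paralog Bmp8a can share reads with it, so its level is uncertain. Inhbb, the beta B subunit of activins and inhibins, was at 5.15, 7.44 and 6.95 CPM in Mll3 KO lungs and 8.99, 8.80 and 12.6 CPM in wild-type lungs (log2 fold change -0.64, edgeR adjusted p = 0.23, 0.0088 with the title prefix, and 0.092 by DESeq2). The groups were separate in both genes, as in the third, Gdf6, a ligand of joint and skeletal development (log2 fold change -0.74). Such a separation downwards was seen in 8.45% of all genes. Of the 11 other receptor genes, 8 were tested and 1 (12.5%) had an unadjusted p under 0.05, near the share of all genes. It was Tmem100, an endothelial gene downstream of ALK1 in mice, with a log2 fold change of -0.45 (edgeR adjusted p = 0.29). Acvr1c (ALK7) was next in that list at 0.33 (edgeR adjusted p = 0.51). The 17 intracellular regulators had a median of 0.00, and the only one at an unadjusted p under 0.05 was Tgif2, a SMAD corepressor, at 0.28 (edgeR adjusted p = 0.33). Ppm1a, a phosphatase acting on SMADs, followed at -0.11 (edgeR adjusted p = 0.52).

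BMP-responsive targets other than the members were close to the background: 9 were tested, and their median log2 fold change was 0.02. Id2 was the only one at an unadjusted p under 0.05 (log2 fold change 0.30, edgeR adjusted p = 0.34), and Msx1 came next at -0.59 and near 1 CPM (edgeR adjusted p = 0.55). Of the 20 TGF-beta-responsive targets, 15 pointed lower, where 9018 of all 19042 genes did. An unadjusted p under 0.05 was reached by 3 of the 20 (15%), all lower, near the 10.7% of all genes. None of the 20 was called by edgeR. Their median was -0.12, against 0.01 over all genes. Eln (elastin) was at 2280, 3447 and 3312 CPM in Mll3 KO lungs and 3978, 4225 and 4006 CPM in wild-type lungs, with KO 1 lowest (log2 fold change -0.43, edgeR adjusted p = 0.30, DESeq2 adjusted p = 0.023, and 0.068 with the title prefix). Ccn2, a matricellular protein induced by TGF-beta and by YAP, was at 52.4, 48.1 and 68.7 CPM in Mll3 KO lungs and 84.0, 73.2 and 68.6 CPM in wild-type lungs (log2 fold change -0.42, edgeR adjusted p = 0.31). The third was Fn1 (fibronectin), chosen after its values were seen, at -0.40 (edgeR adjusted p = 0.32, DESeq2 adjusted p = 0.038, and 0.16 with the title prefix). Several of these genes also mark mesenchymal cells: the 8 myofibroblast and smooth muscle markers summed to 855 to 1023 CPM in Mll3 KO lungs and 969 to 1477 CPM in wild-type lungs, and 8 alveolar fibroblast markers to 4300 to 4843 CPM in Mll3 KO lungs and 5024 to 5083 CPM in wild-type lungs. The first sum includes Acta2 and Tagln, which are themselves among the 20 targets. The part of these marker lists in the target values was not tested.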

How the data were processed

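Polyadenylated RNA from E18.5 lung lobes was made into strand-specific libraries, 3 labelled Mll3 KO and 3 labelled wild type, per the labels' protocols. The submitters' processing notes name GSNAP on mm10, featureCounts 1.6.3, bcl2fastq 2.19.1 and DESeq2 1.24.0. The deposited counts are reads per gene, counted by strand with a mapping quality of at least 1, per the file headers. This filter can remove reads shared by near-identical genes, and how many it removed was not tested. The other deposited table is a signal that the authors normalized by dividing counts by a size factor per library; multiplied back it gave back the counts within 0.1 read for 99.996% or more of values.

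Libraries were grouped by the genotype label and numbered in sample order. The 92 ERCC spike-in names (1 read in all) were left out. Of 55421 genes, 19042 passed filterByExpr and were tested with edgeR 4.0.16 (R 4.3.3; quasi-likelihood test, TMM scaling, robust dispersion, genotype only, two-sided, Benjamini-Hochberg threshold 0.05). SEs are the absolute log2 fold change over the square root of F, and intervals use the fit's degrees of freedom. CPM are TMM-scaled, and RPKM divide them by the count table's exon length. Within-prefix differences used log2(CPM + 0.5). The test was checked on simulated counts. Alternatives were DESeq2 1.42.0, limma 3.58.1 (voom, and log2(signal + 1) of genes with a mean of at least 10), other scalings and filters, the title prefix as a block, an adjusted p threshold of 0.1, and each library left out. Members and gene lists were chosen with earlier results of these data known. All members are named, and of the other pathway genes those called by edgeR and up to 2 per list with the lowest p; 1 of these is not reported here. Libraries of 1 genotype differed beyond sampling noise, so none was counted as a duplicate.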

Additional observations from a re-analysis of the deposited data

How the results depend on the processing

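Over all genes, 70 were called by edgeR, and 83, 66 and 88 with DESeq2-type size factors, library size only and a filter of 1 CPM in 3 libraries. The count was 349 by DESeq2, 8 by limma voom, 443 without a filter, 625 with the title prefix as a block, 17 by limma on the deposited normalized values and 168 at an adjusted p under 0.1. With 1 library left out it was 0 to 41: 41, 11 and 27 without KO 1, KO 2 and KO 3, and 3, 0 and 0 without WT 1, WT 2 and WT 3. The cause was not tested. Members called were 0 by edgeR, 1 (Bmp1) by DESeq2, without a filter and with the title prefix, and 0 to 0 with 1 library left out. Other pathway genes called were 0 by edgeR, 8 by DESeq2, 8 without a filter, 7 with the title prefix, 1 (Pcsk6) at an adjusted p under 0.1, and 0 to 0 with 1 library left out. The members' median log2 fold change stayed between -0.05 and -0.01 with 1 library left out. Members whose genotypes did not overlap numbered 5, and 5, 7 and 5 with DESeq2-type size factors, library size only and deposited values, alternatives chosen after seeing the data. Of the single-member values under alternatives, 524 kept direction and call, 3 (Bmp1) passed the threshold and 32 changed sign. Library size alone turned Tgfb1 (0.023) and Bmpr1a (0.0010). The title prefix turned Acvr1 (-0.012), Smad5 (-0.0029), Smad7 (-0.050), Smad9 (-0.057) and Ltbp3 (-0.0013). Leaving out 1 library gave ranges across zero for Acvr1 (-0.016 to 0.12), Bmp7 (-0.010 to 0.49), Chrd (-0.47 to 0.089), Fst (-1.72 to 0.35), Gdf10 (-0.28 to 0.019), Ltbp2 (-0.062 to 0.17), Ltbp3 (-0.018 to 0.069), Smad1 (-0.0066 to 0.12), Smad3 (-0.10 to 0.013), Smad5 (-0.043 to 0.057), Smad7 (-0.068 to 0.21), Smad9 (-0.063 to 0.16), Tgfb1 (-0.082 to 0.073), Tgfb3 (-0.12 to 0.062) and Tgfbr1 (-0.0081 to 0.057). No paired analysis was possible because the labels give no replicate numbers shared by the groups; the title prefix was the only code they share. Grem1, at 3 to 8 reads in 5 of the 6 libraries, was too shallow to test.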
